A study of Mus musculus with 2 samples.

Results

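Cluster 23 was a small cluster of hepatic CD8αβ T cells. In WT mice it stood above every other CD8αβ cluster in transcripts of Gzmk, Nr4a2 and Lag3. It was defined in the deposited cell table as the cells named CD8αβ (cd8ab) that carried number 23 at a clustering resolution of 1.2. The rule took in 91 of 11929 cells. Of these, 76 came from WT mice, where they made up 9.28% of the 819 CD8αβ T cells, and 15 came from TG mice, where they made up 1.47% of 1020.

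Immune cells carrying CD45 were taken from mouse liver, and transcripts and 49 surface proteins were counted in the same cells with BD Rhapsody, a microwell system, and antibodies carrying oligonucleotides. The TG mice carried dnTGFβRII, a human TGF-β receptor II made dominant negative and driven in T cells by the mouse CD4 promoter, and the strain serves as a model of primary biliary cholangitis. The strain was C57BL/6 for all mice, WT included, and age was 10 weeks per the labels but younger in the study's methods. One capture held TG cells beside those of IFN-γ ARE-Del-/- mice, and the other held WT cells beside those of P40-/-IL-2Ra-/- mice. The number of mice behind each genotype is not given in the sources used here. Only cells named TG or WT were used, so each genotype was 1 library without a replicate, no test could be made, and an effect of the genotype cannot be told apart from one of the capture.

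CD8 T cells that meet antigen persistently can enter a state called exhaustion, in which several inhibitory receptors, among them PD-1, LAG-3, TIM-3 and TIGIT, are carried together on the surface. The transcription factor TOX and the NR4A nuclear receptors, which are induced by T cell receptor signalling through calcium and NFAT, are known for their part in this state. Granzyme K, a serine protease of cytotoxic granules, is found in memory and exhausted CD8 T cells of inflamed and ageing tissues. This is background, and no function of the cells was measured here.

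The windows before the transcription start of Gzmk, Nr4a2 and Pdcd1 are shown because these genes mark the cluster and are read together below. They are the 250 bases upstream of the RefSeq start on GRCm38.p6, all on the minus strand, written 5′ to 3′ in lower case, with matches to the NFAT core GGAAA (or its reverse complement TTTCC) in capitals. The Gzmk window is chr13:113180966-113181215, the Nr4a2 window chr2:57124004-57124253 and the Pdcd1 window chr1:94052554-94052803. The Nr4a2 and Pdcd1 windows lay just outside the annotated span of their genes, and that of Gzmk lay within the span of Gzmk. Overlap with exons was not checked.
Gzmk: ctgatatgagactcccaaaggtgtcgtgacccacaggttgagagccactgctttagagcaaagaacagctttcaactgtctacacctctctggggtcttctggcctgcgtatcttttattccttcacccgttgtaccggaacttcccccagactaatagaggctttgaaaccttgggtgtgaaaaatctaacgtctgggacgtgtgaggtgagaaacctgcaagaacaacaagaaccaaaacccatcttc
Nr4a2: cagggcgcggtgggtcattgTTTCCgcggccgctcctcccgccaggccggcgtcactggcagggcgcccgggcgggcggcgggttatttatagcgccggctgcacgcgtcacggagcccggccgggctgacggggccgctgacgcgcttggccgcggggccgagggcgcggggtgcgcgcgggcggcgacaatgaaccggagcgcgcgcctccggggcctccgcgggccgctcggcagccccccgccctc
Pdcd1: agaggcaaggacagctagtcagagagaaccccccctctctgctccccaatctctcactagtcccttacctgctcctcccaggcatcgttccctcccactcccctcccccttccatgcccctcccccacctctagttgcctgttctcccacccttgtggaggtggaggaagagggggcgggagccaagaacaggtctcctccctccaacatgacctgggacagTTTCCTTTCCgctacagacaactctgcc
The Nr4a2 window held 1 match, 230 to 226 bases before the start, and the Pdcd1 window held 2, of which 1 lay 28 to 24 bases before it. The Gzmk window held none. These 5 letters were found in 55.6% of 32851 windows of the same length, so a match was common. None of the 3 windows held the AP-1 motif TGANTCA (found in 6.75% of all windows), the CRE motif TGACGTCA (1.55%) or the NR4A motif NBRE AAAGGTCA (1.34%). GC content was 48.0%, 80.0% and 60.4% in the order shown. Lag3 and Tox had no entry among these windows.

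Cluster 23 of WT held 285692 RNA molecules (UMIs), with a median of 3794 per cell and a range from 1098 to 8344. The other 743 CD8αβ T cells of WT held 2779497, with a median of 2983, and the 15 TG cells of cluster 23 held 47008, with a median of 2874. Antibody UMIs ran the other way, with a median of 1008 per cell in cluster 23 and 1651 in the other cells. The median mitochondrial share was 4.69% in cluster 23 and 7.17% in the others. No cell of the cluster was called a doublet in either genotype. Among WT and TG cells 36 cell indices were shared, including that of 1 WT cell of cluster 23.

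By transcript, the lineage of the cells followed their name for most of the cluster. The antibody against CD8b did not add to this, as its median signal in the cluster was below that of B cells (given below). Cd3e, a subunit of the T cell receptor complex, was found in 76 of 76 WT cells and Trac, the constant region of the α chain, in 75. Cd8a was found in 63 cells and Cd8b1 in 60, and 67 cells (88.2%, 95% exact Clopper-Pearson interval 78.7% to 94.4%) held at least 1 of the pair. Cd4 was found in 19 cells, 8 of which had no Cd8a or Cd8b1 UMI. The 6 T cell markers (Cd3d, Cd3e, Cd3g, Trac, Cd8a and Cd8b1) summed to 8502 counts per 1000000 UMIs (CPM), against 4542 CPM in the other CD8αβ T cells. In the 5 other clusters the sum ranged from 3444 to 6612 CPM. All intervals are at 95% and cover counting error only, without variation between cells, mice or captures and without adjustment for the number of genes.

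Markers of other cells were detected. Of 4 γδ T cell markers 3 were detected, summing to 539 CPM against 207 CPM in the other CD8αβ T cells. Most of this was Tcrg-C2, a γ chain constant region, at 424 CPM, while Trdc, the defining δ chain constant region, stood at 28.0 CPM against 74.5 CPM. The 5 NK cell markers summed to 382 CPM against 246, the NKT markers Zbtb16 and Klrb1c to 263 against 79.9, and the 3 CD4 T cell markers to 203 against 120. The range over the other clusters was 93.4 to 305 CPM for the γδ list, 31.5 to 499 for the NK list, 8.58 to 213 for the NKT list and 16.5 to 255 for the CD4 list. For 7 B cell markers the sum was 301 against 551 CPM, for 4 plasma cell markers 105 against 406, and for 4 monocyte markers 459 against 953. For 4 neutrophil markers it was 284 against 116 CPM, with 100.2 to 182 over the other clusters, for 5 dendritic cell markers 389 against 383, and for 8 macrophage markers 45.5 against 24.5, with C1qa, C1qc, Cd5l and Vsig4 at 0. Basophil, platelet and hepatocyte markers were at 0 in cluster 23, erythroid markers at 3.50 CPM against 200, and the endothelial list, with Clec4g and Kdr at 0, at 21.0 against 63.3. The part of these in the values below was not tested.

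**Figure D1:**
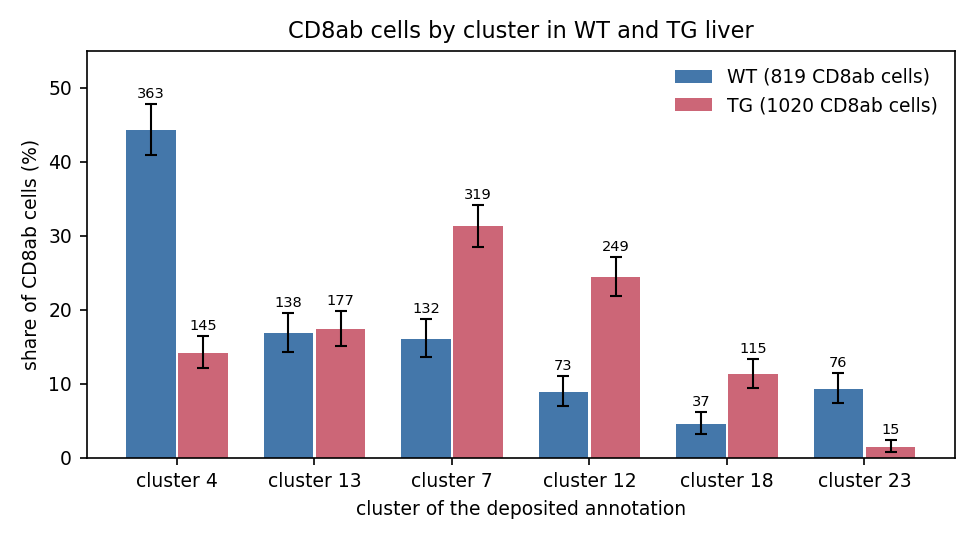
Share of each cluster among CD8αβ T cells (y axis, percent) by cluster (x axis) in WT and TG, with bars at the share and whiskers at the 95% exact interval for counting error. Cluster 23 made up 9.28% of WT and 1.47% of TG cells, while cluster 12 ran the other way, at 8.91% and 24.4%.

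The first comparison asked how much of the CD8αβ compartment the cluster took in each genotype. Its share was 9.28% in WT (7.38% to 11.5%, 76 of 819 cells) and 1.47% in TG (0.825% to 2.41%, 15 of 1020). The difference was 7.81 percentage points, with a Newcombe interval of 5.78 to 10.1. Over all CD45+ cells, of which CD8αβ T cells take different shares in the genotypes, it was 1.04% and 0.323%. At a resolution of 1 these cells were joined with the 152 cells of cluster 18 in 1 cluster of 245 cells. At a resolution of 2 all 91 of them were together in a cluster of 92 cells. As the clusters were drawn on WT and TG cells together by genes that may themselves differ between the captures, the share is a description of this clustering.

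Levels were then compared between cluster 23 and the other CD8αβ T cells within WT, where both came from 1 capture. A gene was called higher or lower at a log2 ratio of CPM of at least 1 in size with an exact conditional binomial interval on the same side of 0. The clusters had been built from these genes, so the calls describe the cluster and support nothing further. Of 9892 genes with at least 10 UMIs, 711 were higher (7.19%) and 477 were lower (4.82%), and the median log2 ratio of all genes was 0.11. With TMM scaling, which sets most genes to no difference, 552 were higher and 625 lower and the median was −0.03. The higher share of all calls thus went from 59.8% to 46.9%, and with totals free of ribosomal and mitochondrial genes it was 46.3%. Ratios to the other CD8αβ T cells of WT should be read against a median of all genes that lay between −0.04 and 0.11 under these 3 scalings. Without the 3 highest cells of each gene on both sides this median was −0.59, against which ratios in that setting should be read.

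**Figure D2:**
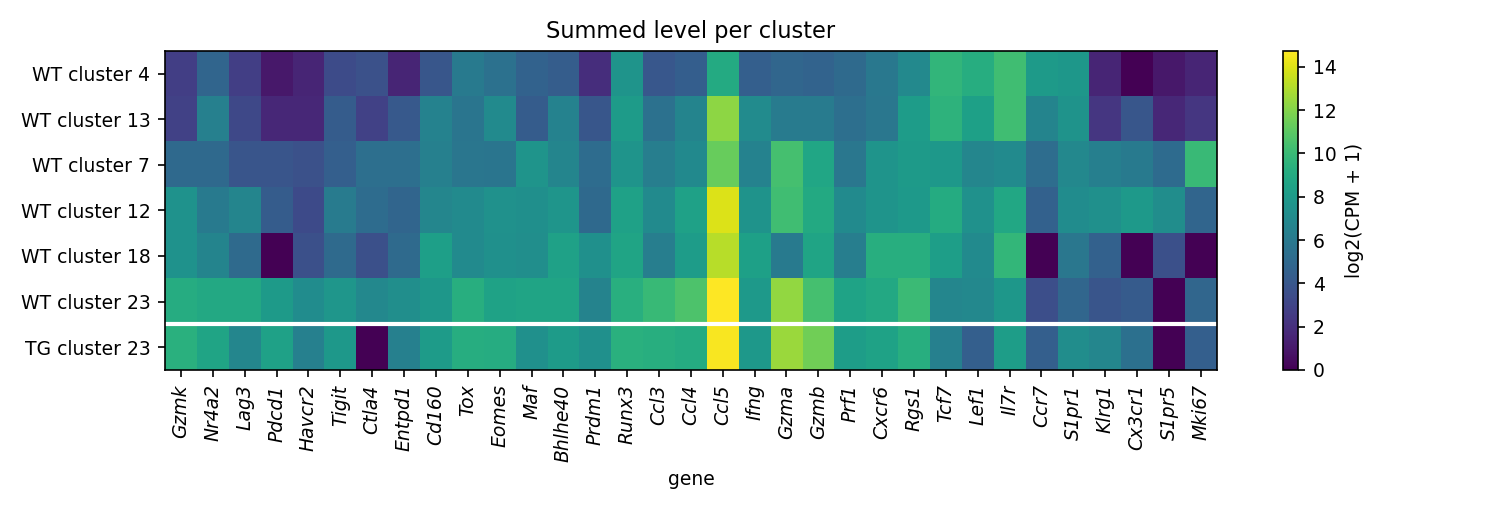
Heat map of the summed level, coloured as log2(CPM + 1), of named genes (x axis) in the 6 CD8αβ clusters of WT and in cluster 23 of TG (y axis, below the white line). Cluster 23 of WT is bright for Gzmk, Nr4a2, Lag3, Pdcd1 and Tox, where the clusters above it are darker, and darker than they are for Tcf7, while Ctla4 is at 0 in cluster 23 of TG.

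Gzmk was at 557 CPM in cluster 23 (473 to 650.1). It was at 182 CPM in cluster 12, 179.6 in cluster 18, 32.0 in cluster 7, 6.20 in cluster 13 and 5.72 in cluster 4. The order was thus led by cluster 23, followed by clusters 12 and 18 with nearly equal levels, and then by clusters with little Gzmk. For orientation, among these 5 clusters Tcf7 and Ccr7 were highest in cluster 4, Il7r in 13, the proliferation gene Mki67 in 7, Klrg1 and Cx3cr1 in 12, and Cxcr6 and Itga1 in 18. Against all other CD8αβ T cells the log2 ratio of Gzmk was 4.03 (3.65 to 4.41), and it was 2.78 with the 5 clusters at equal weight. It was found in 63 of 76 cells (82.9%), with a median of 1 UMI and a maximum of 9. The Gzmk gene spans bases 113171608 to 113225908 of chromosome 13 in GRCm38, on the minus strand.

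Nr4a2 encodes an orphan nuclear receptor that is induced within hours of receptor signalling. It was at 476 CPM in cluster 23 (399 to 563), and at 101 in cluster 18, 84.8 in cluster 13, 63.7 in cluster 12, 32.0 in cluster 7 and 26.7 in cluster 4, a log2 ratio of 3.44 (3.08 to 3.80) against all 5 together. It was spread unevenly over the cells, with UMIs in 41 of 76, a maximum of 26 in 1 cell and 33.1% of all its UMIs in 3 cells. The gene lies on chromosome 2 (57106830 to 57124003, minus strand).

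Lag3 encodes an inhibitory receptor that binds MHC class II. It was at 479.5 CPM in cluster 23 (403 to 567), and at 105 in cluster 12, 33.7 in cluster 18, 13.9 in cluster 7, 8.27 in cluster 13 and 5.72 in cluster 4, a log2 ratio of 4.77 (4.29 to 5.27). It was found in 52 of 76 cells. The intervals of Gzmk, Nr4a2 and Lag3 against each of the 5 other clusters lay above 0. As the cluster is named after these 3 genes, their height is what chose them. Lag3 lies on chromosome 6 (124904361 to 124911705, minus strand).

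The 3 genes were rarely met together outside the cluster. All 3 had a UMI in 21 of 76 cells of cluster 23 (27.6%) and in 1 of 743 other CD8αβ T cells (0.135%). Every WT cell of the cluster held at least 1 of them, compared with 155 of the 743 others (20.9%). As depth differed, each cell was thinned to 1000 UMIs, which left out no cell. Gzmk was then found in 39.5% of cluster 23 and 3.77% of the others, Nr4a2 in 30.3% and 5.65%, and Lag3 in 42.1% and 1.62%. In B cells, which should lack Gzmk and Lag3, the thinned shares were 1.87% for Gzmk, 3.75% for Nr4a2 and 0.870% for Lag3. B cells held a median of 2044.5 UMIs. They were not all alike, as the mature B cluster 17 stood at 49.4 CPM for Gzmk, above CD8αβ clusters 4, 7 and 13. Pooled, the shares in the other CD8αβ T cells were thus within a few points of those in B cells. Those of cluster 23 were far above both. Clusters 12 and 18 stood apart in this pool. At least 1 of the 3 genes was found in 32 of 73 and 18 of 37 of their cells before thinning. Without thinning, Gzmk was in 82.9% of cluster 23, 7.40% of the others and 3.28% of B cells.

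**Figure D3:**
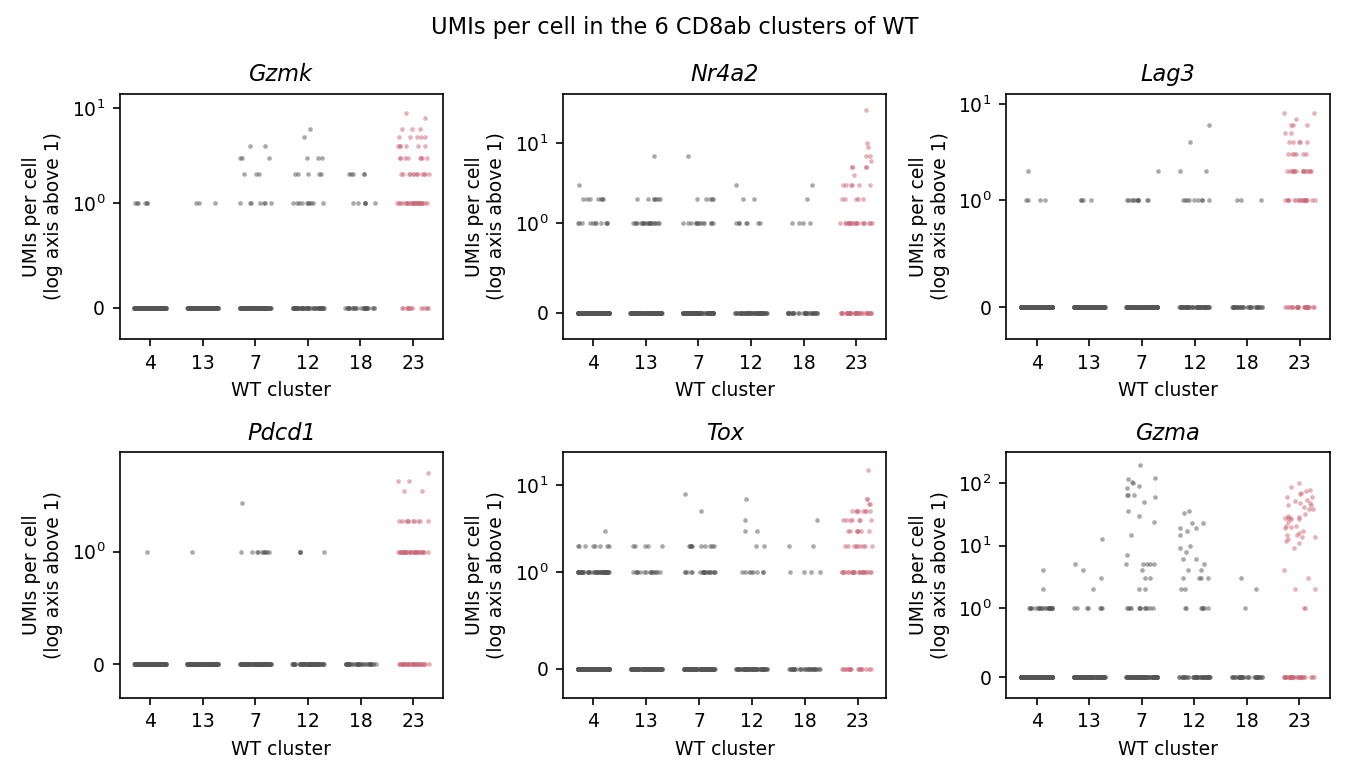
UMIs per cell (y axis, linear to 1 and logarithmic above) of 6 genes in the 6 CD8αβ clusters of WT (x axis), with 1 point per cell and cluster 23 in red. In cluster 23 the median cell held 1 UMI each of Gzmk, Nr4a2, Lag3, Pdcd1 and Tox and 11.5 UMIs of Gzma, of which 30 cells held none.

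Inhibitory receptors were high as a group in cluster 23. Of 12 receptors 9 were higher (all genes 7.19%), none was lower (4.82%) and 3 were neither. The median log2 ratio was 2.64 against 0.11 over all genes. Pdcd1, Lag3, Havcr2, Tigit, Ctla4, Cd244a, Entpd1 and Klrc1 had intervals above 0 against each of the 5 other clusters. Ctla4, Tigit, Havcr2 and Pdcd1 were singled out by the study in these libraries, and the list was drawn up for this cluster, so it is not independent evidence of a direction.

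Pdcd1, which encodes PD-1, was at 259 CPM in cluster 23 (203 to 325). It was at 18.2 CPM in cluster 12, 13.9 in cluster 7, 2.07 in cluster 13, 0.953 in cluster 4 and had no UMI in cluster 18. This gave the largest ratio among the 12 receptors, a log2 ratio of 5.24 (4.50 to 6.05), with UMIs in 45 of 76 cells. Havcr2, which encodes TIM-3, was at 144 CPM (103 to 195) and at no more than 11.7 CPM in any other cluster, a log2 ratio of 4.55 (3.70 to 5.46). Tigit, a receptor for CD155, was at 214 CPM (163 to 274) and next highest in cluster 12 at 68.3 CPM, with a log2 ratio of 3.38 (2.84 to 3.93).

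Ctla4, a receptor that competes with CD28 for its ligands, was at 119 CPM against 22.7 CPM over the other cells, a log2 ratio of 2.39 (1.75 to 3.02). The SLAM family receptor Cd244a stood at 94.5 against 7.92 CPM (log2 ratio 3.58, 2.71 to 4.46), although 44.4% of its UMIs were in 3 cells. Entpd1, which encodes the ectonucleotidase CD39, stood at 154 against 20.9 CPM (2.88, 2.28 to 3.47). These genes separated the cluster from all others. Klrc1, which encodes NKG2A, had a smaller log2 ratio of 1.68 (1.18 to 2.15).

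Not every receptor of the list behaved alike. Cd160 reached 224 CPM in cluster 23 and 326 CPM in cluster 18, where the interval of the ratio held 0, although it was higher than in the other cells as a whole (log2 ratio 1.69, 1.26 to 2.10, and 0.85 with clusters at equal weight). Vsir, which encodes VISTA, was at 203 against 193 CPM, a log2 ratio of 0.07 (−0.35 to 0.46). Btla had 8 UMIs and Cd200 had 2, and both had a log2 ratio of −0.30 with an interval on both sides of 0.

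Receptors were met together in single cells. At least 2 of Pdcd1, Lag3, Havcr2 and Tigit had a UMI in 53 of 76 cells of cluster 23 (69.7%, 58.1% to 79.8%) and in 14 of 743 others (1.88%). All 4 were found in 6 cells of the cluster and none of them in 8. After thinning to 1000 UMIs at least 2 were found in 16 of 76 cells (21.1%) and in 0 of 743, as detection at this depth is lower. Pdcd1 and Tox were both found in 35 of the 76 cells (46.1%), and Pdcd1 with Tcf7, the factor of stem-like exhausted cells, in 12 (15.8%). Among the other cells both of these pairs were found in 9 of 743 (1.21%). Taken singly, Lag3 was found in 68.4% of cluster 23, Pdcd1 in 59.2%, Tigit in 42.1%, Havcr2 in 32.9%, Tox in 77.6% and Tcf7 in 21.1%. Whether genes were met in the same cell more often than these shares would give was not tested.

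Cluster by cluster, most but not all receptors were higher, and 8 of the 12 were above all 5 clusters by their intervals. Against cluster 12, the next highest in Gzmk, 9 of 11 receptors were higher with a median log2 ratio of 1.64. Over all genes tested 5.30% were higher in that comparison. Against cluster 18 it was 8 of 11 with a median of 2.45, where 2.60% of all genes were higher. Against clusters 4, 7 and 13 it was 9 of 11, 8 of 12 and 9 of 11, with medians of 4.85, 1.70 and 3.15 and backgrounds of 11.7%, 10.0% and 8.91%. The median of all genes was 0.04, −0.10, 0.19, 0.07 and 0.18 against clusters 12, 18, 4, 7 and 13. Over all genes cluster 23 had the fewest calls against cluster 18, with 145 higher and 178 lower, but this smallest cluster of 37 cells also had the fewest genes that could be tested.

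**Figure D4:**
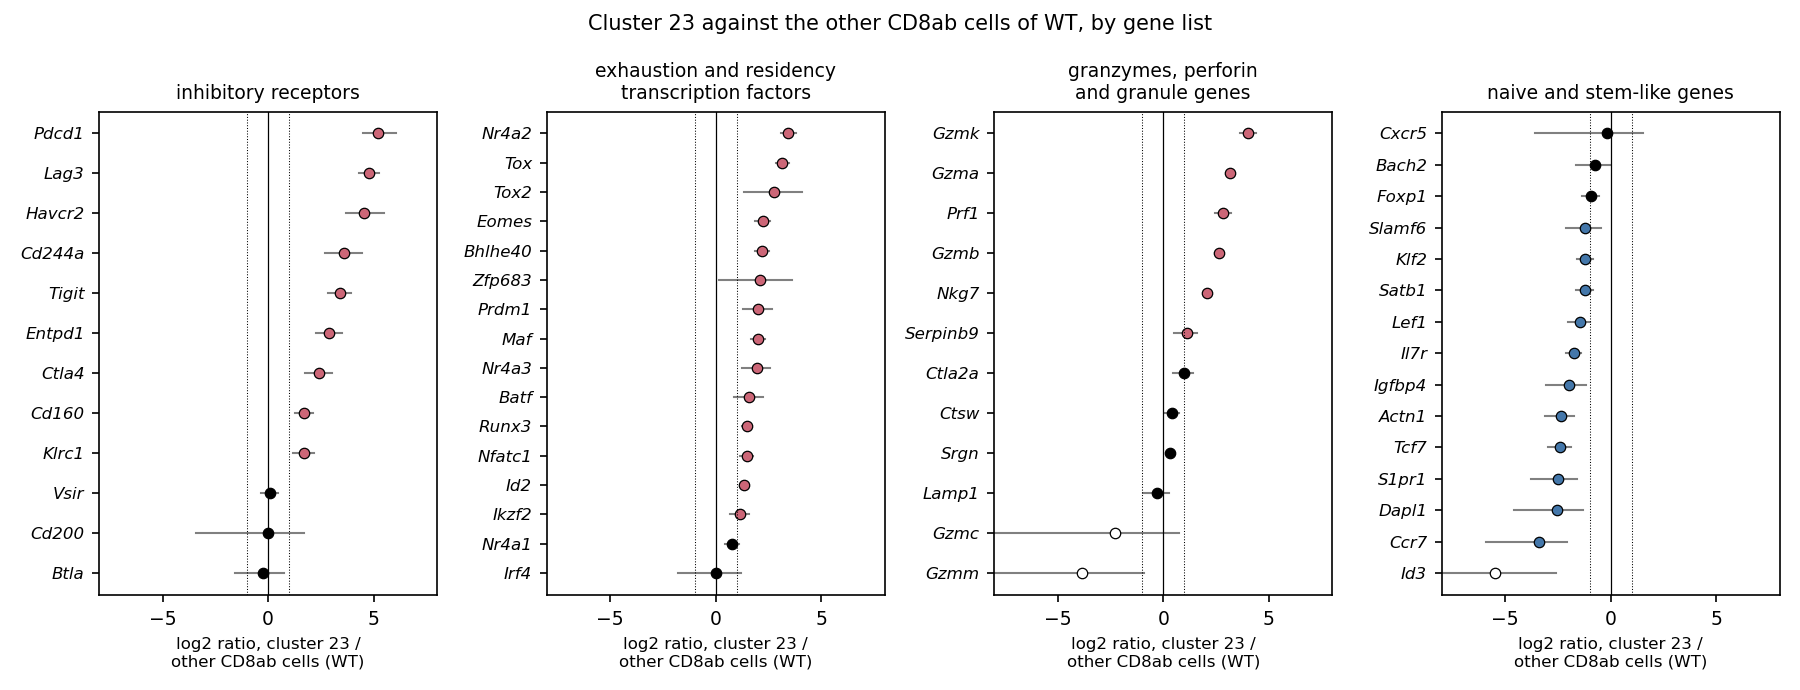
Log2 ratio (x axis) of cluster 23 to the other CD8αβ T cells of WT for the genes of 4 lists (y axis), with 0.5 UMIs added to each sum for the points and 95% intervals as bars, which end at the edge where they run past it. Red points were called higher, blue lower and black neither, open points had no UMI in cluster 23, and dotted lines stand at −1 and 1. Of the 12 inhibitory receptors 9 are red and of the 15 naive genes none is.

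Transcription factors of exhaustion and tissue residency were also high. Of 16 factors 14 were higher (all genes 7.19%) and 2 neither, with a median log2 ratio of 1.97 (all genes 0.11). Tox was at 599 CPM in cluster 23 (512 to 695), at 135 in cluster 18, 132 in cluster 12, 64.8 in cluster 4, 55.4 in cluster 7 and 51.7 in cluster 13. It was found in 59 of 76 cells, with a log2 ratio of 3.16 (2.85 to 3.47) that ranged from 2.77 to 3.16 over the alternatives. Of these factors, Tox, Nr4a2, Eomes, Maf and Runx3 had intervals above 0 against each of the other 5 clusters.

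Eomes, a T-box factor of memory and exhausted cells, was at 354 CPM in cluster 23, 173 in cluster 12, 168 in cluster 18, 132 in cluster 13, 51.1 in cluster 7 and 43.9 in cluster 4 (log2 ratio 2.22, 1.86 to 2.57). Tbx21, which encodes the related factor T-bet, stood at 77.0 against 59.0 CPM (0.38, −0.33 to 1.03). Eomes was thus called higher and Tbx21 was not. Maf had a log2 ratio of 1.99 (1.66 to 2.32) and Runx3, a factor of the CD8 lineage, one of 1.47 (1.23 to 1.71). Nfatc1, a calcium-regulated factor, was at 396 against 144 CPM (1.46, 1.14 to 1.76).

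Id2, Bhlhe40 and Prdm1, which are known for effector and resident cells, were higher than in the other cells together, with log2 ratios of 1.34, 2.20 and 1.99, the last of which was 0.92 with clusters at equal weight. In cluster 18 they stood at a similar level, and the intervals of the ratio held 0. Within the NR4A family the members differed. Nr4a1 was at 301 against 175 CPM (0.78, 0.43 to 1.11), short of the fold. Nr4a3 had a log2 ratio of 1.92 (1.23 to 2.57), but only 7 cells held it and 78.6% of its UMIs were in 3 of them. Without the 3 highest cells its ratio was 0.38, where the median of all genes was −0.59. Zfp683, which encodes Hobit, had 5 UMIs, so its call rests on 4 cells, and Irf4 was at 17.5 against 19.1 CPM.

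Genes of naive and stem-like cells were low. Of 15 genes none was higher, 12 were lower (all genes 4.82%) and 3 were neither, with a median log2 ratio of −1.75. Tcf7, which encodes the stem-like factor TCF-1, was at 109 CPM in cluster 23 (73.7 to 154), against 831 in cluster 4, 753 in cluster 13, 542 in cluster 12, 303 in cluster 18 and 232 in cluster 7. It was the only gene of the list whose interval lay below 0 against all 5 clusters, with a log2 ratio of −2.41 (−2.97 to −1.90). It was found in 16 of 76 cells (21.1%) and in 73.1% of the others.

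Il7r, the receptor of the survival cytokine IL-7, was at 224 against 757 CPM (−1.76, −2.14 to −1.40), but cluster 7 was lower still at 133 CPM. Ccr7 and S1pr1, receptors for homing to and leaving lymph nodes, had log2 ratios of −3.62 (−5.91 to −2.07) and −2.58 (−3.80 to −1.59), with 3 and 6 positive cells. Id3 had no UMI in cluster 23 and was at least 7.50-fold lower than in the other cells at the floor of 3 counts. Bach2 (−0.77), Foxp1 (−0.93) and Cxcr5 (−0.47) did not reach the fold. Without cluster 4, which holds 363 of the 743 other cells, 5 more of the list fell short of it, Lef1 at −0.59, Satb1 at −0.69, Klf2 at −0.85, Dapl1 at −0.86 and Igfbp4, which turned to 1.24. Counts of the list followed the clusters, with 14 of 14 lower against cluster 4, 11 of 15 against cluster 13, 8 of 13 against cluster 12, 5 of 14 against cluster 7 and 2 of 11 against cluster 18. Over all genes 4.34%, 3.91%, 3.93%, 9.97% and 3.20% were lower in these comparisons. Against cluster 7, 1 gene of the list was higher.

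Granule genes were split. Of 12 such genes 6 were higher (all genes 7.19%), Gzmk among them, 1 was lower (4.82%) and 5 were neither. The median log2 ratio was 1.04. Gzma was at 5233 CPM (4971 to 5505), at 1376 in cluster 7, 1188 in cluster 12, 70.3 in cluster 13, 67.4 in cluster 18 and 27.7 in cluster 4. Its log2 ratio was 3.17 (3.06 to 3.27), and 4.87 without cluster 7. Gzmb, the granzyme that activates caspases, was at 1337 CPM (1206 to 1478), with 487 in cluster 12 as the next highest (2.65, 2.46 to 2.84). Prf1, which encodes the pore-forming perforin, was at 371 against 51.8 CPM (2.84, 2.46 to 3.21).

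Gzma was not carried by all cells, with UMIs in 46 of 76 but a median of 11.5 and a maximum of 103. Both Gzma and Gzmk were found in 36 cells, Gzmk without Gzma in 27, Gzma without Gzmk in 10, and neither in the rest. Gzmk was thus found both with and without Gzma. Gzmm had no UMI in the cluster (at least 2.36-fold lower) and Gzmc had none either, without reaching the criterion. Nkg7, a granule membrane protein, was found in all 76 cells at 3595 against 866 CPM (2.05, 1.95 to 2.16). Serpinb9, an inhibitor of granzyme B, was at 126 against 59.0 CPM (1.09, 0.53 to 1.62), but fell short of the fold with TMM scaling and, at 0.54, without cluster 4. Srgn (0.31), Ctsw (0.42) and Lamp1 (−0.31) did not reach the fold.

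The terminal effector list split by its members. Of 10 genes 3 were higher (all genes 7.19%), 3 were lower (4.82%) and 4 were neither, with a median of 0.65. The higher genes were Gzma, Gzmb and Prf1. The lower genes were Klrg1, Cx3cr1 and S1pr5, which mark terminally differentiated circulating effectors. Klrg1 had 14.0 CPM here and 168 CPM in cluster 12 (log2 ratio against all other cells −1.60, −3.50 to −0.21), Cx3cr1 at 17.5 and 237 CPM (−1.31, −2.96 to −0.05), and S1pr5 at 0 and 150.3 CPM. Without cluster 7 the calls of Klrg1 and Cx3cr1 were lost, at log2 ratios of −0.59 and −0.75. Each was higher in 2 of the 5 other clusters by its interval, 7 and 12, and lower in cluster 4.

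Inflammatory chemokines were among the highest genes. Of 7 chemokines 3 were higher (all genes 7.19%) and 3 neither, with a median of 1.73 over these 6. Cxcl16 had too few UMIs. Ccl3 was at 991 CPM in cluster 23 (879 to 1113), at 132 in cluster 12, 78.6 in cluster 18, 77.8 in cluster 7, 43.4 in cluster 13 and 15.3 in cluster 4 (4.24, 3.94 to 4.54). Ccl4 was at 1554 CPM (1413 to 1706) and next at 341 CPM in cluster 12 (3.92, 3.70 to 4.14). Its UMIs were uneven, with 95 in 1 cell and 41.9% of the total in 3 cells, but 60 of 76 cells held it. Ccl5 was found in every cell with a median of 95 UMIs, at 27519 against 3487 CPM (2.98, 2.94 to 3.02) and at 16259 CPM in cluster 12. The 3 genes lie near each other on chromosome 11, with Ccl5 at 83525778 to 83530518, Ccl3 at 83647844 to 83649355 and Ccl4 at 83662584 to 83664683. Xcl1 was at 105 against 76.6 CPM (0.45, −0.15 to 1.01) and highest in cluster 18, at 281 CPM.

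Of 11 cytokines and death ligands that could be tested, 5 were higher (all genes 7.19%) and 6 neither, with a median of 0.73. Fasl, the ligand of the death receptor FAS, was at 112 against 20.1 CPM (2.47, 1.80 to 3.13) and Tnfsf10, which encodes TRAIL, at 94.5 against 26.6 CPM (1.83, 1.13 to 2.48). For both, the interval of the ratio to cluster 18 held 0, and a CD8αα cluster stood at 118 CPM for Fasl. Against cluster 18, 0 of 8 genes of the list were higher and 2 were lower, where 2.60% and 3.20% of all genes were. Ifng was at 245 against 88.1 CPM (1.47, 1.07 to 1.86, and 0.67 with clusters at equal weight), although clusters 12 and 18 were at levels whose ratio held 0, the latter at 337 CPM. Tnf (−0.35) and Il2 (0.11) did not reach the fold. Csf2 had 4 UMIs. Il10 had 11 UMIs in 2 cells, so its call is a matter of those cells.

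Receptors of homing and retention gave a mixed picture. Among chemokine receptors, the liver homing receptor Cxcr6 was higher, at 473 against 135 CPM (1.81, 1.51 to 2.10). Cluster 18 had more Cxcr6, at 617 CPM. Ccr7, Cx3cr1 and Cxcr4 (−1.20, −1.90 to −0.57) were lower.

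Of 11 tissue retention genes 5 were higher (all genes 7.19%), 1 was lower (4.82%) and 5 were neither, with a median of 1.05. Rgs1, which dampens chemokine receptor signalling, was at 1078 against 224 CPM (2.27, 2.07 to 2.47) and above each other cluster. Itgae, which encodes the αE integrin CD103, had 1 UMI (−3.60, −8.92 to −1.09). By the intervals only cluster 4 had more Itgae, and those against clusters 7, 12, 13 and 18 held 0. Cd69 was at 301 against 291 CPM (0.05, −0.29 to 0.37). Itga1, which encodes CD49a, reached 59.5 CPM here and 191 CPM in cluster 18 (1.01, 0.17 to 1.78, short of the fold with TMM scaling, and −0.0039 with clusters at equal weight). Against cluster 18 none of 8 retention genes was higher and 3 were lower, where 3.20% of all genes were lower.

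Among 12 costimulatory receptors 3 were higher (all genes 7.19%) and 9 neither, with a median of 0.68. Tnfrsf9, which encodes the activation receptor 4-1BB, was at 126 CPM against 11.2 CPM (3.50, 2.76 to 4.24), Cd7 at 1964 against 373 CPM (2.39, 2.24 to 2.54) and Tnfrsf1b, which encodes TNF receptor 2, at 137 against 33.5 CPM (2.03, 1.45 to 2.58). The 20 cytokine receptors had a median of 0.04, with 5 higher (all genes 7.19%) and 4 lower (4.82%). The higher ones included Il10ra (2.11), Il21r (1.23) and Il2rb, the β chain for IL-2 and IL-15, at 1834 against 720.3 CPM (1.35, 1.21 to 1.49, and 0.90 without cluster 4). Without its 3 highest cells Il21r was at 0.81, where the median of all genes was −0.59. Against cluster 18 the intervals of Il10ra, Il21r and Tnfrsf1b held 0, and those of Il2rb, Cd7 and Tnfrsf9 lay above 0. In that comparison 0 of 15 cytokine receptors and 1 of 11 costimulatory receptors were higher, where 2.60% of all genes were. Lower were 2 and 1 of them, where 3.20% of all genes were. The lower cytokine receptors were Il7r, Il18r1 (−2.19), Il6ra (−2.27) and Il6st (−1.10), which had −0.09 without cluster 4. Tgfbr2, the receptor blocked in TG mice, was at 172 against 151 CPM (0.18, −0.28 to 0.61).

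T cell receptor signalling genes were mostly within the fold. Of 20 genes 6 were higher (all genes 7.19%) and 14 neither, with a median of 0.64. They were Cd3e (1.21), Cd3g (1.52), the kinases Zap70 (1.06) and Fyn (1.40), Nfatc1, and Cish, an inhibitor of receptor signalling, at 130 against 26.3 CPM (2.30, 1.69 to 2.89). Zap70 fell short of the fold with TMM scaling and, at 0.79, with clusters at equal weight. Against cluster 18, 1 of 20 genes of the list was higher and 1 lower, where 2.60% and 3.20% of all genes were. In that comparison the intervals of Zap70, Nfatc1 and Cish held 0, and those of Cd3e, Cd3g and Fyn lay above 0. Of 26 immediate early and NF-κB genes 4 were higher (all genes 7.19%) and 22 neither (median 0.46). These were Egr1 (1.03, short of the fold with TMM scaling), Egr2, Egr3 and Nfkbid (1.55). Egr2 had 10 UMIs in 4 cells and Egr3 had 93.8% of its UMIs in 3 cells. Without its 3 highest cells the ratio of Egr3 was −0.37, where the median of all genes was −0.59. Against cluster 18 the intervals of Egr1, Egr2 and Egr3 held 0, and that of Nfkbid lay above 0.

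Cell cycle genes were low, with 15 of 18 lower (all genes 4.82%) and 3 neither. Their median was −5.10, or −3.25 with the 6 genes at 0 set to their bound. Mki67 had 28.0 CPM here and 1035 CPM in cluster 7 (−3.66, −4.87 to −2.67 against all other cells). Without cluster 7, the ratio of Mki67 was 2.38 and the median of the list was 0.17. The low list therefore rests on cluster 7. Glycolysis genes had a median of 0.00 with 12 of 12 neither, and 17 of 18 interferon-stimulated genes were neither (median 0.34), with Bst2 lower (−1.24, and −0.45 with cells thinned to 1000 UMIs).

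Of 10 BCL-2 family genes 4 were higher (all genes 7.19%) and 6 neither (median 0.83). The survival gene Bcl2 was at 409.5 against 201 CPM (1.02, 0.72 to 1.31), but fell short of the fold with TMM scaling and, at 0.71, without cluster 7, and Pmaip1 had a log2 ratio of 1.19, and of 0.51 with clusters at equal weight. Bcl2a1b and Bcl2a1d, also higher, are near-identical copies whose reads may be split between them. This holds also for the Klra genes and for Hspa1a and Hspa1b. Hspa1a and Hspa1b were the 2 of 10 heat shock chaperones called higher (all genes 7.19%, list median 0.08). Without its 3 highest cells Hspa1a had a log2 ratio of 0.39, where the median of all genes was −0.59. Among 14 killer cell receptors 4 were higher (all genes 7.19%) and 3 lower (4.82%), with a median of 0.42. Klrb1c, Klrc1, Klrc2 and Klre1 were higher, and Klra1, Klra7 and Klrg1 were lower. Against cluster 18, 1 of 9 BCL-2 family genes and 3 of 7 killer cell receptors were higher, where 2.60% of all genes were. In that comparison the intervals of Bcl2a1b, Bcl2a1d, Pmaip1, Hspa1a, Hspa1b, Klrb1c and Klrc2 held 0. Those of Bcl2, Klrc1 and Klre1 lay above 0.

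The highest and lowest ratios were ranked among genes with at least 100 UMIs in both sums together and 10 in each, which leaves out Pdcd1, Havcr2 and Mki67, among others with larger ratios. Of the 15 highest so ranked 12 have been described. The others were 2900026A02Rik at 277 against 10.8 CPM (4.68, 4.06 to 5.34), Tcrg-C2 (2.83, 2.48 to 3.17) and Serpina3g, a serine protease inhibitor, at 364 against 64.8 CPM (2.49, 2.13 to 2.85). Cluster 18 stood at 382 CPM for Serpina3g. The 10 lowest so ranked were Vim, Tcf7, Actn1, Tuba1b, Mcm5, Cdc25b, Rgs10, Emb, Sidt1 and Hmgn2. Without cluster 7, Tuba1b (−0.69), Mcm5 (−0.20) and Hmgn2 (−0.32) did not reach the fold. Vim, which encodes the filament protein vimentin, was at 126 against 679 CPM (−2.43, −2.95 to −1.96), and cluster 18 was lower still at 67.4 CPM. The 5 genes whose level over the 6 clusters was most like that of Gzmk were Gimap1, Tab2, Zap70, Anxa11 and Sla2, with Pearson correlations of log2(CPM + 1) from 0.973 to 0.979. With 6 points from 1 library this is a description only.

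Among 25 WT clusters of all cell types, cluster 23 had the highest level of Gzmk, Nr4a2, Lag3, Pdcd1, Tigit, Tox, Ccl4, Ccl5 and 2900026A02Rik. For Nr4a2 the next was an NK cluster at 138 CPM, for Lag3 the plasmacytoid dendritic cells at 259 CPM, for Pdcd1 the γδ T cells at 58.4 CPM and for Tox an NK cluster at 177 CPM. For Tigit a CD4 cluster followed at 147 CPM (98.9 to 209), whose interval overlapped that of cluster 23, as did those of an NK and a CD8αα cluster for 2900026A02Rik. Cluster 23 was second for Havcr2, after a macrophage cluster at 175 CPM with an overlapping interval, for Eomes, after an NK cluster at 692 CPM, and for Entpd1, after a monocyte cluster at 399.9 CPM. For Gzma 3 NK clusters stood above it, for Ccl3 a monocyte and 2 NK clusters, for Cd7 and Tcrg-C2 2 clusters each, and for Maf 5.

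**Figure D5:**
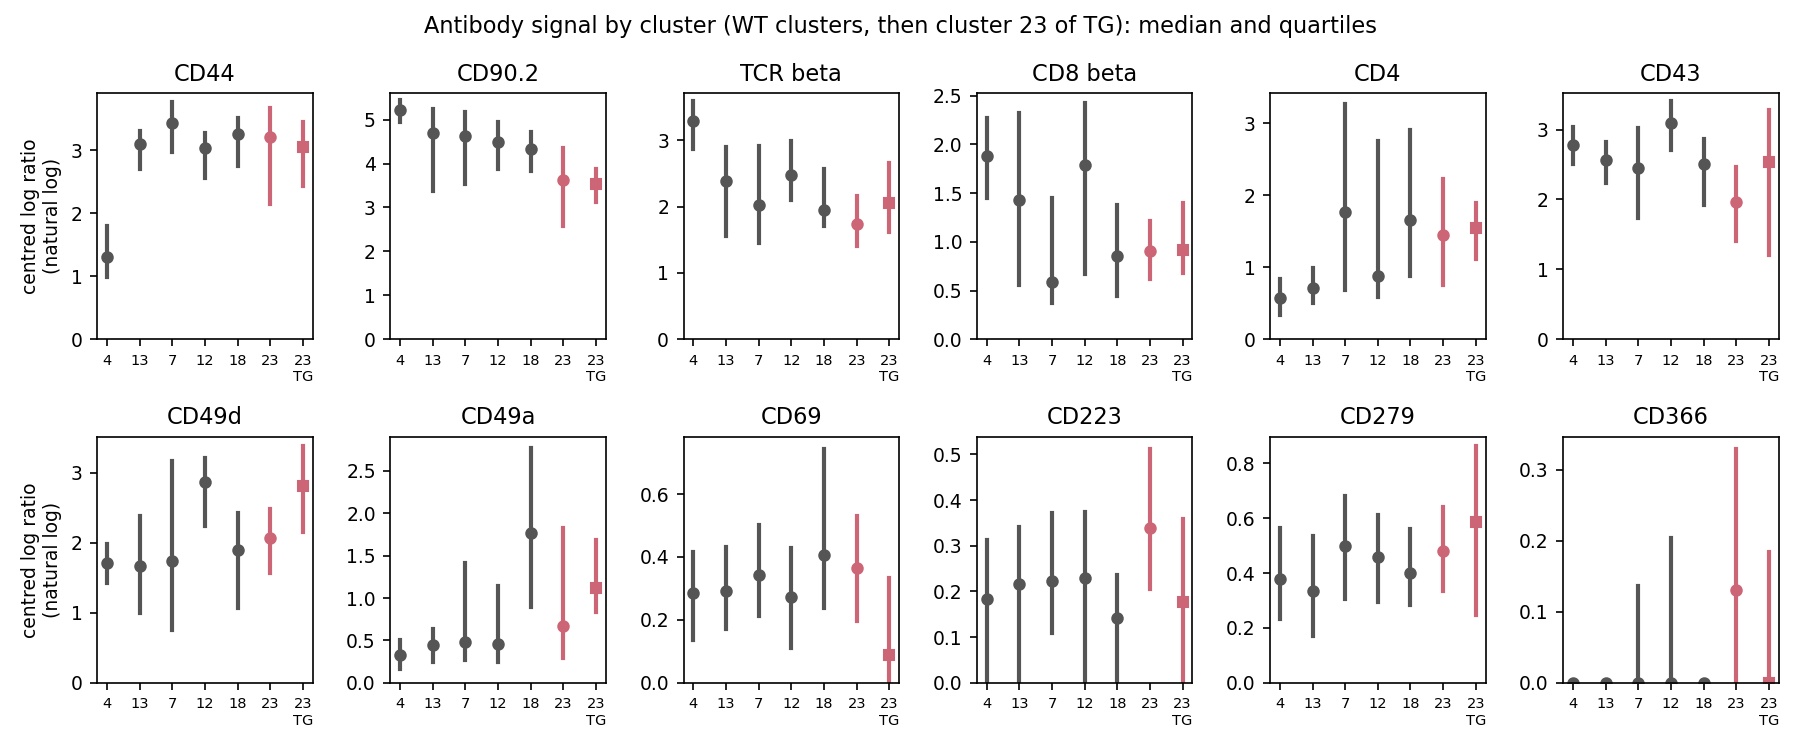
Median (point) and quartiles (bar) of the centred log ratio (y axis, natural log) of 12 antibodies over the cells of each WT CD8αβ cluster and of cluster 23 of TG (x axis, red for cluster 23). CD223 and CD366 have their highest median in cluster 23 of WT, CD90.2 and TCRβ their lowest among the WT clusters, and the quartiles of the clusters overlap for most antibodies.

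Antibody counts gave a second reading of some of these genes. They enter as a share of all antibody UMIs, so a change in an abundant protein moves all others, and antibody depth was lower in the cluster. Of 48 antibodies 20 were higher (41.7%) and 1 was lower (2.08%) by the same criterion, while the median centred log ratio was above that of the other cells for 26, below it for 18 and equal for 4. TIGIT had the highest log2 ratio at 2.90 (2.45 to 3.33), from 66 UMIs, 39.4% of them in 3 cells, with 40.8% of cells positive against 15.5%. CD366, the TIM-3 protein, had 2.64 (2.32 to 2.95), with 59.2% of cells positive against 20.3%. CD223 (LAG-3) had 1.53 (1.33 to 1.73), with 82.9% against 69.6% of cells positive, and CD279 (PD-1) had 1.03 (0.87 to 1.19), which was 0.73 without its 3 highest cells and 0.86 without cluster 4, short of the fold. The 4 receptors thus lay on the same side for protein and transcript, but the centred log ratio separated them less. Its median for CD279 was 0.48 in cluster 23, 0.50 in cluster 7 and 0.46 in cluster 12, for TIGIT it was 0 in every cluster, and for CD366 and CD223 it was highest in cluster 23 at 0.13 and 0.34. B cells had 0.0931% of their UMIs on CD223, compared with 0.274% in cluster 23 and 0.0950% in the other CD8αβ T cells, so the latter were near the level of cells that lack the protein.

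CD44, a marker of antigen experience, took 14.9% of antibody UMIs in cluster 23 and 5.16% in the others (log2 ratio 1.53). By cluster it was 10.5% in cluster 18, 9.38% in cluster 7, 7.95% in cluster 12, 7.68% in cluster 13 and 1.66% in cluster 4. The median centred log ratio was 3.21 against 2.34, and it was higher in clusters 7 and 18, at 3.43 and 3.27. CD44 thus separated cluster 23 most clearly from cluster 4. CD49a had 1.46, but it took 4.81% of antibody UMIs in cluster 18 and 1.84% in cluster 23. CD49d (0.81), CD69 (0.85), CD122 (0.08), CD3 (−0.06) and CD43 (−0.17) did not reach the fold. CD28 had 1.13, with 42.7% of its UMIs in 3 cells and 77.6% of cells positive against 85.2%.

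CD172a (2.36), CD16-CD32 (2.31) and CD41 (2.31) completed the 5 highest. These are chiefly myeloid and platelet proteins, and 30.2%, 32.0% and 32.9% of their UMIs were in 3 cells. IgD, CD45R and TER-119 were also past the fold, with 54.1% to 62.5% of their UMIs in 3 cells. The lowest were TCR Vα2 (−1.09), CD8b (−0.96, −1.05 to −0.87), CD103 (−0.70), CD90.2 (−0.66) and TCR Vβ5 (−0.55), and Ly-6G had no UMI. CD90.2 took 30.6% of antibody UMIs in the cluster and 48.2% in the others. The median centred log ratio of CD8b was 0.90 in the cluster and 1.67 in the others. B cells stood at 1.70, so this median did not separate the other CD8αβ T cells from B cells. That of CD4 was 1.45 against 0.70, with 1.77 in cluster 7, 1.66 in cluster 18 and 3.50 in CD4 T cells.

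Receptor V segments were sparse in these counts. A Trbv segment was found in 17 of 76 cells, with Trbv1 and Trbv15 in 3 each and Trbv12.2 in 2, and in 87 of 743 others. A Trav segment was found in 0 of 76 cells, and in 2 of 743 others, as the table held only 3 of them. With so few cells no expansion of a clone could be read from them.

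The same comparison was made in TG, with 15 cells of cluster 23 and 1005 other CD8αβ T cells. Tgfbr2, the mouse gene of the receptor that the transgene blocks, was at 511 CPM in the TG cells of the cluster (327 to 759.7) and at 172 CPM in the WT cells (log2 ratio 1.57, 0.80 to 2.31). Whether transgene reads were counted under the mouse gene was not tested. Over all genes 4.76% of 10609 were higher and 1.23% lower in cluster 23 of TG. The median log2 ratio of all genes was 0.49 in TG. The 0.5 UMIs added to each sum weigh more on the 47008 UMIs of the 15 TG cells. Medians in TG are therefore not comparable with those in WT. Of 12 inhibitory receptors 4 were higher and 8 neither, with a median of 1.42 to be read against 0.49. Of 16 transcription factors 7 were higher and 9 neither.

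Gzmk was at 659 CPM in TG (448 to 936, 12 of 15 cells), with a log2 ratio of 3.20 (2.62 to 3.73) against the other TG cells. Nr4a2 was at 383 CPM (4.14, 3.34 to 4.87), Pdcd1 at 340.4 CPM (5.95, 4.97 to 6.88) and Tox at 574 CPM (4.04). For these 4 genes the interval of the log2 ratio of TG to WT cells of the cluster held 0 and lay within −1.11 to 1.19. Lag3 was lower in the TG cells, at 106 CPM (34.5 to 248) from 5 UMIs in 4 cells, with a log2 ratio to WT of −2.17 (−3.82 to −0.92). Ctla4 had no UMI there. In the TG cells 4 of 15 (26.7%) held all 3 of Gzmk, Nr4a2 and Lag3, 2 of 15 (13.3%) held none of them, and 6 of 15 held at least 2 of Pdcd1, Lag3, Havcr2 and Tigit.

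Within the cluster, Gzmb and Ccl4 passed the fold between the TG and the WT cells, and Ccl3 and Gzma did not. Gzmb was at 2999 CPM in TG and 1337 in WT (1.17, 0.88 to 1.45), Ccl4 at 532 and 1554 CPM (−1.55, −2.19 to −0.97), and Ccl3 at 617 and 991 CPM (−0.68, −1.29 to −0.13). Gzma was at 5871 and 5233 CPM (0.17, −0.02 to 0.35), but the other TG cells also had much of it, and its log2 ratio against them was 0.16 (−0.02 to 0.33). Gzma therefore set the cluster apart in WT and not in TG by this criterion. That difference was not tested. Over all 5230 genes 2.96% were higher and 1.32% lower in TG cells of the cluster.

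Markers of other cells moved with these values. In the 15 TG cells NK markers summed to 1638 CPM against 382 CPM in WT cells of the cluster, with 4 of 5 detected and Klra8 at 0. Of this, 1042 CPM was Fcer1g, with 29 of its 49 UMIs in 1 cell. The γδ T cell markers summed to 1021 against 539 CPM, with 3 of 4 detected. Neutrophil markers summed to 851 against 284 CPM, with 3 of 4 detected, and dendritic markers to 979 against 389 CPM, with 2 of 5 detected. The part of these in the differences between the genotypes was not tested. Of the 133 named genes past the fold in WT, 113 had the same direction in TG and 63 were past the fold in the same direction. Over all genes, 131 were higher in both, out of 711 in WT and 505 in TG, and 71 were lower in both, out of 477 and 130. WT and TG cells had been clustered together by these genes, so agreement between them was partly built in. These counts describe the cluster and are no independent support.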

How the data were processed

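The deposited files held UMI counts per gene and per antibody, in tables for both capture libraries and in tables filtered by the authors (13528 genes, 11929 cells). The authors aligned reads to mm10 with STAR in the BD Rhapsody pipeline, corrected UMIs by their distribution, assigned cells to genotypes by sample tags, and joined the datasets by canonical correlation in Seurat. The rule of their cell filter is not given in the sources used here, and a 0 in the filtered table can stem from it. The deposited antibody values on a natural log scale are centred log ratios per cell, and the mitochondrial percent per cell is also from the deposited metadata, as are cluster numbers and cell type names. The deposited normalised RNA values were not used.

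Counts were summed over the cells of a cluster and divided by their total to give CPM, with Poisson intervals. Ratios had exact conditional binomial intervals, shares had Clopper-Pearson intervals and differences of shares Newcombe intervals, all at 95%. Genes needed at least 10 UMIs over both sums. List medians used 0.5 UMIs added to each sum. A fold against a sum of 0 was taken at a floor of 3 counts over the group. Depth per group is given above and sets the interval widths. Shares of cells were thinned to 1000 UMIs per cell. Doublets were called with Scrublet at an expected rate of 5% (scanpy 1.11.5). Other tools were Python 3.11.15, numpy 2.4.6, scipy 1.17.1, pandas 2.3.3, matplotlib 3.10.9, R 4.3.3 and edgeR 4.0.16, the last for TMM factors only. The ratio calculation was tested on simulated data.

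Named genes were the members of 20 lists, the 15 highest and 10 lowest ratios of genes that had 100 or more UMIs summed, at least 10 on each side, under 50% of UMIs of the higher side in 3 cells and the same direction under every scaling, and the 5 genes most like Gzmk. Receptor segments, immunoglobulin and sex genes were left out of that ranking. Members and lists were chosen with earlier results of these data known. Marker genes of other cells, antibodies and V segments were also fixed lists. Motifs were searched in RefSeq windows of GRCm38.p6, and positions are those of GENCODE for GRCm38. Some surface proteins and genes are not reported here. Alternatives are in the closing section.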

Additional observations from a re-analysis of the deposited data

Results flagged for a closer look

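For 4 genes the ratio of cluster 23 to the other CD8αβ T cells had intervals on opposite sides of 0 in WT and TG. The difference itself was not tested, and each genotype is 1 library. Serpinb9, an inhibitor of granzyme B, had a log2 ratio of 1.09 in WT (0.53 to 1.62) and no UMI in the 15 TG cells, where the floor of 3 counts gives −0.59 as the bound. Ifi27l2a, an interferon-stimulated gene, had −0.53 in WT (−0.96 to −0.13) and 1.05 in TG (0.33 to 1.68), from 20 UMIs in 7 TG cells, 10 of them in 1 cell. Klra7, an NK cell receptor with near-identical copies, had no UMI in WT, with a bound of −2.19, and 1.03 in TG (0.22 to 1.74), from 16 UMIs in 5 cells, 10 of them in 1 cell. Fcer1g, an adaptor of NK and myeloid cells, had −1.20 in WT (−2.22 to −0.34) and 1.88 in TG (1.44 to 2.29), from 49 UMIs in 5 cells, 29 of them in 1 cell. NK markers, of which Fcer1g is 1, summed to 1638 CPM in the TG cells and 382 CPM in the WT cells of the cluster, and their part was not tested.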

How the results depend on the processing

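The number of higher genes (711) was 1389 with equal weight per cell, 1165 with the 5 other clusters at equal weight, 458 at a minimum of 50 UMIs, 438 with cells thinned to 1000 UMIs and 241 without the 3 highest cells of each gene. The number of lower genes (477) was 1280, 1094, 173 with thinning, 1392 without the 3 highest cells and 306 without cluster 7. The settings with equal weight carry no interval criterion, and thinning tests fewer genes at lower depth. The cause of the other moves was not tested. The median of inhibitory receptors (2.64) was 3.29 without cluster 7 and 2.14 to 3.19 elsewhere. The share difference of 7.81 points was 0.721 over all cells and 6.45 to 8.92 with other denominators.

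Without cluster 7 the cell cycle median became 0.17, Mki67 2.38, Top2a 0.17, Pclaf 0.76 and Hmgb2 0.44. Without cluster 4 Igfbp4 became 1.24. With clusters at equal weight Itga1 became −0.0039. Without its 3 highest cells Egr3 became −0.37, in a setting where the median of all genes was −0.59. Of the 48 antibodies, the ratio left its interval for 39 without the 3 highest cells, 32 without cluster 4, 24 without cluster 7 and 23 with equal weight per cell. Counting only cells with a Cd8a or Cd8b1 UMI, chosen after seeing the data, gave 737 higher and 368 lower genes. The library file gave the same counts as the filtered table for the 14 genes read from it, and the numbers of higher and lower genes were not recomputed from it. No paired analysis was possible because each genotype has 1 library. Depth limits the TG cells of the cluster most, at 47008 UMIs.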
